A study of Mus musculus with 9 samples.

Results

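The genes described here are 10 genes of intestinal epithelium, measured in medullary thymic epithelial cells: Lypd8 (2210415F13Rik on the array), Muc3, Muc13, Slc39a4, Vil1, Fabp1, Fabp2, Reg3g, Lgals4 and Guca2a. They are 10 of the 19593 genes on the array and were taken by symbol, with 1 probe set each. The group was chosen by known expression in gut epithelium together with earlier results of these arrays: Lypd8, Muc3 and Slc39a4 had been among the genes with the smallest p-values between knockdown and knockout. That difference is therefore described without a test, and the comparisons with wild type, which share its arrays, are not independent of the choice.

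The 9 arrays hold RNA of medullary epithelial cells with CD80 on their surface, from thymus of female Balb/c mice aged 4 to 6 weeks. There were 3 arrays each of C2TA knockdown (replicates 4 to 6), C2TA knockout (7 to 9) and C2TA wild type (1 to 3). C2TA, encoded by Ciita, switches on transcription of MHC class II genes, and the study asked how these cells themselves contribute to CD4 T cell tolerance. The labels give neither the construct that silences C2TA, nor the cells it acts in, nor the number of mice behind an array, so a p-value covers only how these samples vary, which may be technical in part.

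Medullary thymic epithelial cells transcribe many genes that are otherwise restricted to peripheral organs, and present their products to developing T cells. Some of these genes need the regulator Aire, and single cells express different subsets of them. Genes of the gut lining are a well known part of this repertoire, and medullary cells that resemble gut cell types have been described in mice. In the intestine, many genes of absorptive cells are bound by HNF4, CDX and GATA factors. A lower value in such a bulk sample can come from fewer cells that express the gene or from less RNA per cell, and these cannot be told apart here.

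Promoter sequences are shown because 5 of the 9 members with an entry in the promoter table hold the same short element there. The 250 bases before each annotated start were searched on both strands for GGNCAAAG, the core of the direct repeat to which HNF4 and related nuclear receptors bind (CTTTGNCC on the reverse strand). The letters were chosen after the sequences had been seen, and the element occurs in 4.892% of 32851 promoters of the same length. Counted by promoter, 5 of the 11 promoters of these 9 genes hold it, since the first starts of Lypd8 and Muc13 do not. Each sequence reads 5′ to 3′ along its gene, ends at the base before the start, and has the element in capitals. The sequences are from RefSeq, build GRCm38.p6 (C57BL/6J). Muc3 lies on the minus strand at chr5:137166047-137166296 and holds the element 2 times. Fabp1 is shown at chr6:71199629-71199878, Vil1 at chr1:74409134-74409383, the second start of Lypd8 at chr11:58380396-58380645 and the second start of Muc13 at chr16:33794239-33794488, all on the plus strand.
Muc3: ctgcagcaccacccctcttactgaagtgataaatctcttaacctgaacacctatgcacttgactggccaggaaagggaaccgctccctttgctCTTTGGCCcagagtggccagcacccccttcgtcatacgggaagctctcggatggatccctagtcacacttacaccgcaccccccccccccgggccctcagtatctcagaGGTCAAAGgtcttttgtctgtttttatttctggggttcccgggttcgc
Fabp1: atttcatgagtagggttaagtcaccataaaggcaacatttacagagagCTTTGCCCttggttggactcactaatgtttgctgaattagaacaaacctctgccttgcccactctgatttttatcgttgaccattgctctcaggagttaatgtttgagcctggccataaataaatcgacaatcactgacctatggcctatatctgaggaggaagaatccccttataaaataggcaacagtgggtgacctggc
Vil1: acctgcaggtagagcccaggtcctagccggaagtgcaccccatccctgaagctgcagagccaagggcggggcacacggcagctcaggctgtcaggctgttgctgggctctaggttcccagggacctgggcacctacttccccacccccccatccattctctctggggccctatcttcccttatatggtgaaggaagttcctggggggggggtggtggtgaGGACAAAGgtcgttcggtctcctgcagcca
Lypd8: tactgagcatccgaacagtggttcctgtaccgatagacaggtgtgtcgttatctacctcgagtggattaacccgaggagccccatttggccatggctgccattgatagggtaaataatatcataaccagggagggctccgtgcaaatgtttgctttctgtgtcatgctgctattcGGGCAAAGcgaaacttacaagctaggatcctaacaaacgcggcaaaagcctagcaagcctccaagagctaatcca
Muc13: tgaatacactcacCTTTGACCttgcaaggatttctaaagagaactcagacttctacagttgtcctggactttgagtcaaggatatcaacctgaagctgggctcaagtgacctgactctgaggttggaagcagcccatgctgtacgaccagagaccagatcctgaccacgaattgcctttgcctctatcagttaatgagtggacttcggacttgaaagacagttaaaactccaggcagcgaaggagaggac

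In Muc3 the element ended 41 and 150 bases before the start, in Vil1 23, in Lypd8 68, in Fabp1 195 and in Muc13 230. Of these 5 genes, Lypd8, Muc3, Fabp1 and Vil1 had lower means in the knockdown than in wild type, Vil1 with overlapping arrays, and Muc13 did not. Fabp2, which lacks the element, had a lower mean too, and Guca2a, Lgals4 and Reg3g, which also lack it, had higher means. The letters were chosen after the sequences were seen and some genes from these arrays, so no link between element and change was tested. TTTATG, a core of CDX sites, lay in the promoters of Fabp1 and Muc13 and in 10.76% of all promoters. AGATAA, a core of GATA sites, lay in those of Guca2a and Lypd8 and in 9.988% of all. Matches of different elements did not overlap, and a match describes letters and not binding. The other members in the promoter table are Fabp2, Lgals4 and Reg3g, and Slc39a4 was not matched.

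Values are RMA log2 values, in which 1 unit is a doubling of the signal, and they are compared between arrays and not between genes. The array medians lay between 4.48 and 4.54. The interquartile range was narrowest on wild type 1, at 2.20, then on knockout 7, at 2.37, and the 7 remaining arrays had 2.53 to 2.80. The targeted gene, Ciita, had 5.29 ± 0.30 in the knockdown, 6.07 ± 0.10 in the knockout and 6.40 ± 0.14 in wild type (SD, n = 3 each). Its change in the knockdown was -1.11 (SE 0.16) with a limma adjusted p of 0.055. All 8 MHC class II genes had values below wild type without overlap in both groups, where 3.46% (knockdown) and 2.29% (knockout) of all genes did. Of these 8 genes, 3 passed the test in the knockdown (H2-DMa, H2-DMb2 and H2-Oa) and 8 in the knockout. Epcam, the epithelial adhesion molecule, lay between 8.92 and 9.15 in the knockdown, 8.69 and 9.19 in the knockout and 8.73 and 9.36 in wild type. Fezf2, a regulator of medullary epithelium, averaged 8.35 in the knockdown, 8.41 in the knockout and 8.52 in wild type. RMA values have no true zero, so absence of a marker of another cell type could not be shown. Aire was called higher in the knockdown, by 1.54 (limma adjusted p 0.00362), and had -0.08 in the knockout. Of all 11 markers of medullary epithelium, 7 had lower means in the knockdown (median -0.06, and -0.22 to 0.11 with 1 array left out). Krt5 (0.58) and Aire lay above wild type there and Cldn3 (-0.31) below it without overlap, where 4.8% and 3.46% of all genes did. None of the markers but Aire passed. In the knockout their median was -0.11, or -0.23 without wild type 1 and 0.07 without wild type 2, and none passed.

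In the knockdown, Lypd8, Muc3, Slc39a4 and Fabp1 had log2 values below all wild type arrays, by 1.31 to 2.22-fold on average, whereas Vil1, Muc13, Reg3g, Lgals4, Guca2a and Fabp2 overlapped with wild type. All 10 dendritic cell and macrophage markers averaged lower in the knockdown too, with a median of -0.22, and their part in the values of the gut genes was not tested. Lypd8, Muc3 and Slc39a4 were also below all knockout arrays. None of the changes of the gut genes against wild type passed the test over all genes, and the difference from the knockout was not tested. In the knockout, Lypd8, Slc39a4 and Lgals4 had values above all wild type arrays, by at most 1.47-fold on average, and none passed.

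**Figure D1:**
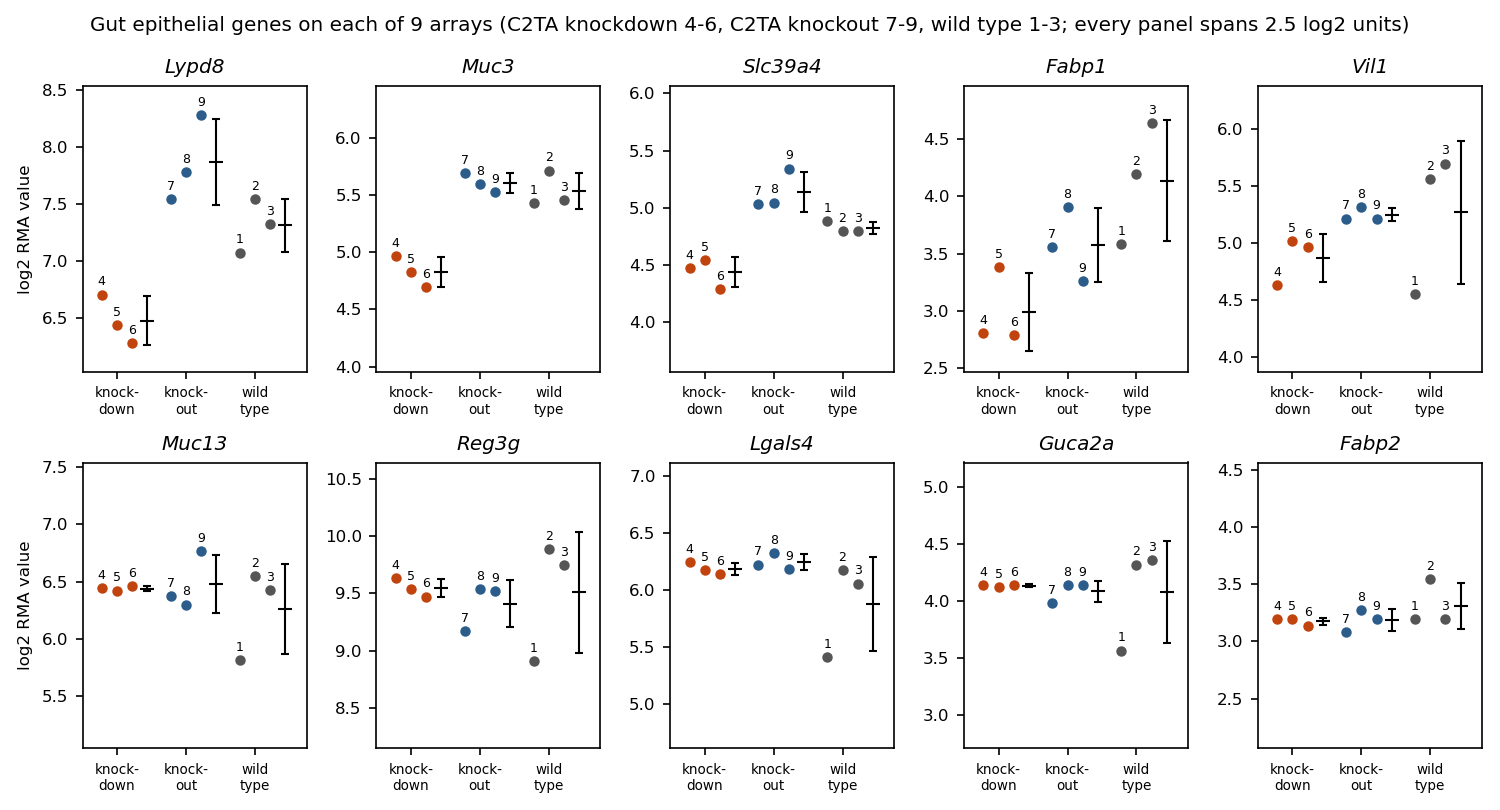
Log2 RMA value of each gut epithelial gene on each array, by group; numbers are the replicates, and the bars beside the points show mean ± SD (n = 3). Knockdown arrays of Lypd8, Muc3 and Slc39a4 lie below all other arrays, and wild type 1 is the lowest array for Vil1, Muc13, Reg3g, Lgals4 and Guca2a.

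Across the 10 genes, means were lower in the knockdown than in wild type for 6 and higher for 4, with a median change of -0.26, against 0.0096 over all genes. Leaving out wild type 1 gave a median of -0.31, and leaving out wild type 2 gave -0.14. Of the 10, 4 lay below wild type without overlap, where 3.46% of all genes did, and 0 lay above it, where 4.8% did. At a limma adjusted p of 0.05, 0 of the 10 were called, as were 0.0664% of all genes. Without adjustment, 4 of the 10 had a limma p under 0.05, all lower, where 5.24% of all genes passed in either direction and 2.37% as lower. Against the knockout, 8 of 10 means were lower in the knockdown, 4 without overlap (Lypd8, Muc3, Slc39a4 and Vil1), a share of 4.22% among all genes. The 3 genes with knockdown arrays below all 6 others compare with 1.4% of all genes. Since earlier results of these arrays entered the choice, these shares describe the genes and support nothing.

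In the knockout, 6 means were higher and 4 lower than in wild type, with a median of 0.04. The 3 genes above wild type without overlap were Lypd8, Slc39a4 and Lgals4, where 2.54% of all genes were, and 0 lay below, where 2.29% of all genes did. At a limma adjusted p of 0.05, 0 of the 10 were called, as were 0.0459% of all genes, and all 10 had an adjusted p of 0.9997. At an unadjusted p under 0.05 in limma there were 2, Lypd8 and Slc39a4, both higher, where 3.34% of all genes passed in either direction and 1.75% as higher. Leaving out wild type 1 turned the median to -0.10, and leaving out wild type 3 gave 0.17. With 3 arrays a group, the smallest p of an exact permutation test is 0.1, so none was used. The authors' deposited table gives q-values in percent without naming the groups, the smallest of the 10 being 19.0 for Muc3, 20.4 for Lypd8 and 29.8 for Slc39a4.

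**Figure D2:**
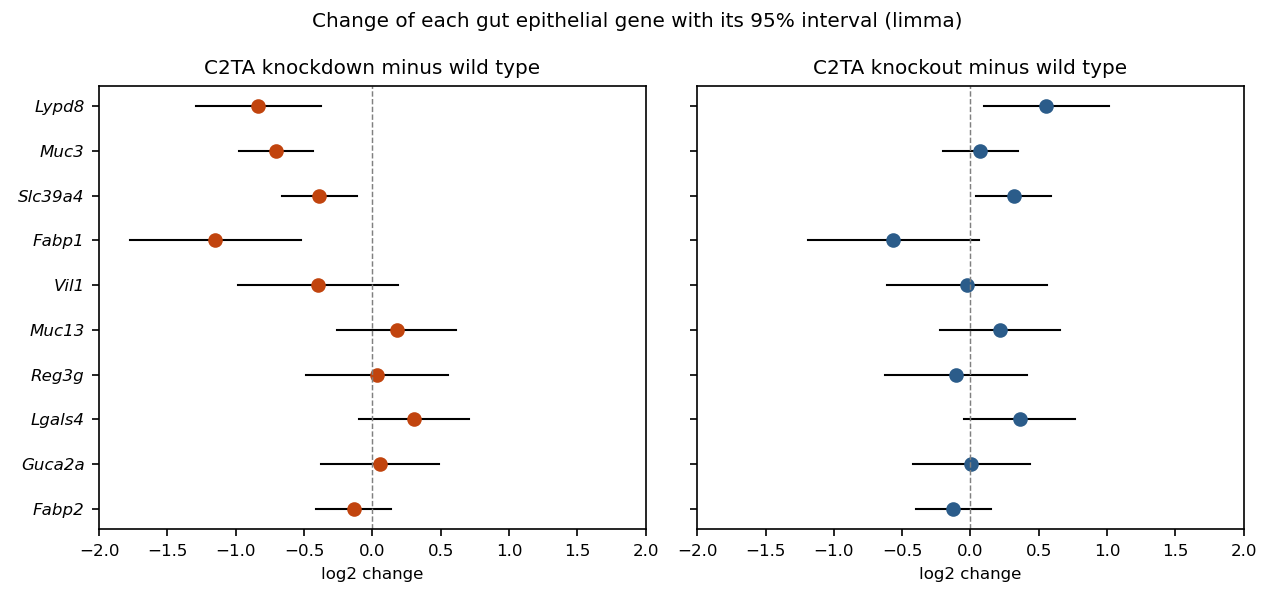
Log2 change of each gut epithelial gene against wild type, in the knockdown (left) and the knockout (right); points are limma estimates and lines their 95% intervals. Intervals for Lypd8, Muc3, Slc39a4 and Fabp1 lie below 0 in the knockdown, and those for Lypd8 and Slc39a4 lie above 0 in the knockout.

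Lypd8 encodes a GPI-anchored protein of colonic epithelium that keeps flagellated bacteria away from the surface. Its log2 values were 6.71, 6.44 and 6.28 in the knockdown, 7.54, 7.78 and 8.28 in the knockout, and 7.07, 7.54 and 7.32 in wild type. All knockdown arrays lay below the others, and the knockout arrays were above wild type, knockout 7 by a margin too small to show at 2 decimals. The knockdown change was -0.84 (SE 0.20, 95% interval -1.29 to -0.38), 1.78-fold lower on average, with a limma adjusted p of 0.397. In the knockout Lypd8 had 0.56 (SE 0.20, 95% interval 0.10 to 1.01). Set against the knockout, the knockdown differed by -1.39 (SE 0.20, 95% interval -1.85 to -0.93), or 2.62-fold. The order of its means was knockdown, wild type, knockout, with no overlap between neighbours.

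Muc3, a membrane-bound mucin of the enterocyte surface, had 4.96, 4.82 and 4.69 in the knockdown, 5.70, 5.60 and 5.53 in the knockout, and 5.43, 5.71 and 5.46 in wild type. The knockdown stood alone at the low end, and knockout and wild type overlapped. Its knockdown change was -0.71 (SE 0.12, 95% interval -0.98 to -0.43), a 1.63-fold lower level with a limma adjusted p of 0.122, the smallest of the 10 genes. In the knockout the change was 0.07 (SE 0.12, 95% interval -0.20 to 0.35), and the difference of knockdown and knockout was -0.78 (SE 0.12). Muc13, the other membrane-bound mucin of the group, had 6.44, 6.42 and 6.46 in the knockdown, 6.37, 6.30 and 6.77 in the knockout, and 5.81, 6.55 and 6.42 in wild type. All 3 groups overlapped, and its knockdown change was 0.18 (SE 0.20, 95% interval -0.26 to 0.62), against 0.22 (SE 0.20) in the knockout.

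Slc39a4, the zinc importer of the apical enterocyte membrane, had 4.47, 4.54 and 4.29 in the knockdown, 5.03, 5.04 and 5.34 in the knockout, and 4.88, 4.79 and 4.79 in wild type. As for Lypd8, the knockdown arrays were lowest, the wild type arrays came next and the knockout arrays were highest, without overlap. Wild type 2 and 3 held an equal value, and knockdown 4 and 6 lay below the medians of their arrays. The knockdown change was -0.39 (SE 0.12, 95% interval -0.66 to -0.11; limma adjusted p of 0.614). The knockout change was 0.32 (SE 0.12, 95% interval 0.04 to 0.59), and the knockdown differed from the knockout by -0.71 (SE 0.12), or 1.63-fold.

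Fabp1, a fatty acid carrier of enterocytes and hepatocytes, had 2.80, 3.38 and 2.79 in the knockdown, 3.55, 3.91 and 3.26 in the knockout, and 3.58, 4.19 and 4.64 in wild type. The knockdown lay below wild type, but knockdown 5 was above knockout 9, and knockout and wild type overlapped. The knockdown change was -1.15 (SE 0.28, 95% interval -1.78 to -0.52), or 2.22-fold, with a limma adjusted p of 0.397. The knockout change was -0.56 (SE 0.28, 95% interval -1.19 to 0.06), and the knockdown differed from the knockout by -0.59 (SE 0.28). Without wild type 1 the knockout change was -0.84, and without wild type 3 it was -0.31. Apart from wild type 3, every array had Fabp1 below the array median, and background was not measured here. Fabp2, the intestinal fatty acid carrier, had 3.19, 3.19 and 3.14 in the knockdown, 3.08, 3.27 and 3.19 in the knockout, and 3.19, 3.55 and 3.19 in wild type. The 3 groups overlapped, and 5 of the 9 values were equal, as the median polish of RMA can produce. Its knockdown change was -0.14 (SE 0.12, 95% interval -0.41 to 0.14), and its knockout change was -0.13 (SE 0.12).

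Vil1 encodes villin, which bundles actin in the microvilli of the brush border. It had 4.63, 5.02 and 4.96 in the knockdown, 5.21, 5.31 and 5.21 in the knockout, and 4.55, 5.56 and 5.69 in wild type. Wild type 1 was the lowest of all arrays, below the knockdown, while wild type 2 and 3 were the highest. The knockdown change was -0.40 (SE 0.26, 95% interval -0.99 to 0.19), and without wild type 1 it was -0.76 with a limma adjusted p of 0.0774. Lypd8, Muc3 and Fabp1 had -0.95, -0.76 and -1.43 without that array, with limma adjusted p-values of 0.17, 0.0629 and 0.0774. Slc39a4 had -0.36 without it. In the knockout Vil1 had -0.02 (SE 0.26, 95% interval -0.61 to 0.56). The knockdown arrays of Vil1 were below all knockout arrays, with a difference of -0.38 (SE 0.26).

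Reg3g, a secreted lectin that kills Gram-positive bacteria, had 9.63, 9.54 and 9.47 in the knockdown, 9.17, 9.54 and 9.52 in the knockout, and 8.91, 9.89 and 9.74 in wild type. The groups overlapped, with wild type at both ends. Its knockdown change was 0.04 (SE 0.23, 95% interval -0.48 to 0.56) and its knockout change -0.10 (SE 0.23). Lgals4, a galectin of the digestive tract, had 6.24, 6.18 and 6.14 in the knockdown, 6.22, 6.32 and 6.18 in the knockout, and 5.41, 6.18 and 6.06 in wild type. Wild type 1 was low, and the lowest knockout array was barely above the highest wild type array. The change was 0.30 (SE 0.18) in the knockdown and 0.36 (SE 0.18, 95% interval -0.04 to 0.76) in the knockout, and without wild type 1 it was 0.07 in the knockdown and 0.13 in the knockout. Guca2a encodes guanylin, a peptide that controls salt and water secretion through guanylate cyclase C. It had 4.14, 4.12 and 4.14 in the knockdown, 3.98, 4.14 and 4.14 in the knockout, and 3.57, 4.32 and 4.36 in wild type. Again wild type spanned both ends, 4 arrays held an equal value, and the knockdown change was 0.05 (SE 0.19, 95% interval -0.38 to 0.48), with 0.01 (SE 0.19) in the knockout.

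The genes did not vary alike over the arrays. Wild type 1 was the lowest array for 5 of the 10 and knockdown 6 for 4, namely Lypd8, Muc3, Slc39a4 and Fabp1. Relative to the mean of the 9 arrays, the 10 genes averaged -0.21, -0.17 and -0.30 in the knockdown, 0.05, 0.19 and 0.21 in the knockout, and -0.29, 0.29 and 0.23 in wild type. Wild type 1 thus lay at the level of the knockdown arrays, with its lowest values in Vil1, Muc13, Reg3g, Lgals4 and Guca2a. Among 9789 genes above the median level, the profiles nearest to this average were those of Dok1, an adaptor of receptor signalling, Otulin, a deubiquitinase, and Fabp6, the ileal bile acid carrier, with root mean square differences of 0.0932, 0.0981 and 0.0994 over the 9 arrays. Next came Irf8 (0.104), Ldha, Rab7 (both 0.106), Aoc1 (0.107), Slc15a3 (0.108), Msi1 (0.109) and Ftl1 (0.111), where the median gene had 0.265. The profile of Lypd8 was approached by AW112010 (0.221), Timp3 (0.229), Nos2 (0.250), Cpne2 (0.272) and Tbx15 (0.280), against 0.634 for the median gene.

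**Figure D3:**
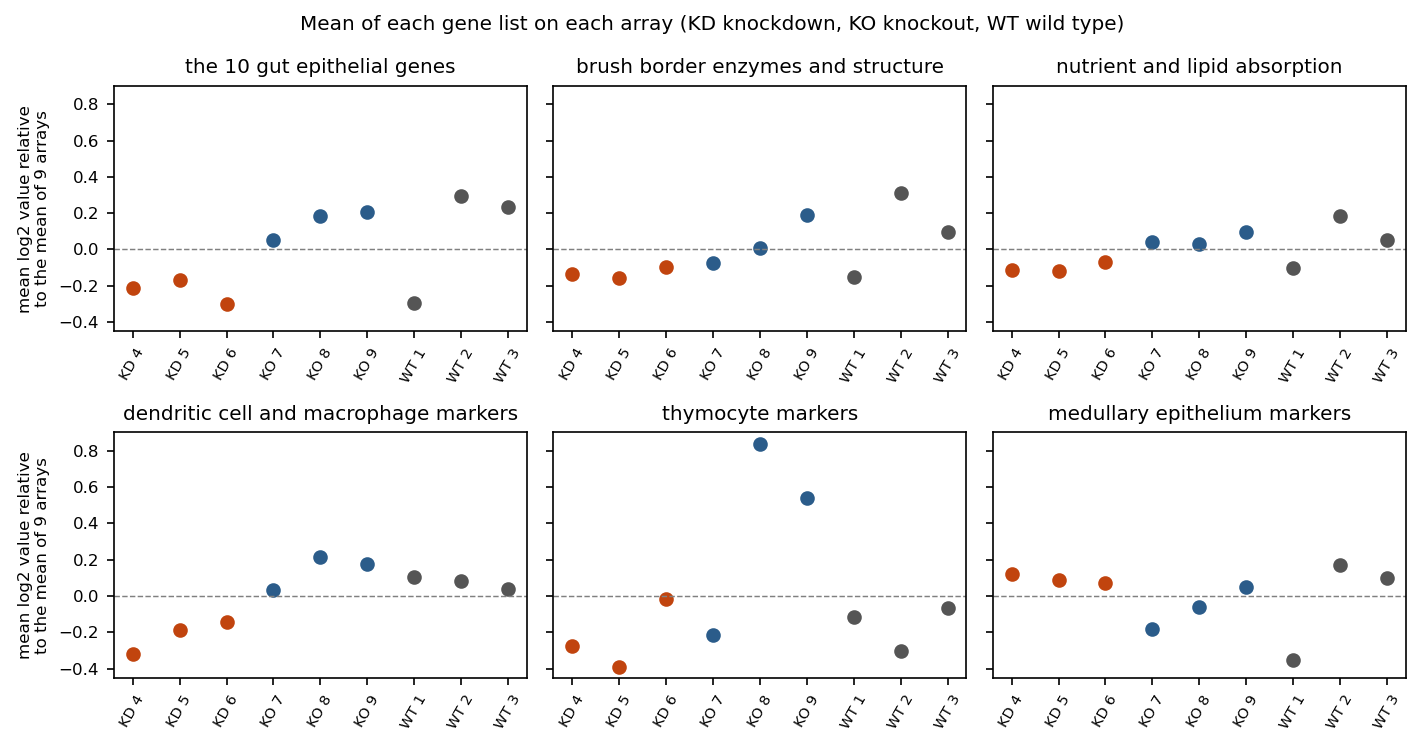
Mean log2 value of each gene list on each array, relative to the mean over the 9 arrays (vertical axis); each point is an array. The 10 gut epithelial genes lie between -0.30 and -0.17 on the knockdown arrays and at -0.29 on wild type 1, and the dendritic cell and macrophage markers are below 0 on the knockdown arrays alone among the 9.

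Other brush border genes were split between some with knockdown arrays apart from wild type and others that overlapped. Of 17 measured, 14 averaged below wild type in the knockdown (median -0.12), and 6 had arrays below wild type without overlap (Cdh17, Sis, Cdhr2, Cdhr5, Alpi and Mep1b), where 3.46% of all genes did. Their median became -0.27 when wild type 1 was left out and -0.03 when wild type 2 was. Cdh17, the liver-intestine cadherin, had 6.08, 5.91 and 6.20 in the knockdown, 6.68, 6.76 and 7.33 in the knockout, and 6.71, 7.37 and 7.23 in wild type. The knockdown alone was low, with a change of -1.04 (SE 0.21, limma adjusted p of 0.247). Sis, sucrase-isomaltase of starch digestion, had 3.60, 3.50 and 3.33 in the knockdown, 3.88, 3.85 and 4.12 in the knockout, and 4.04, 5.06 and 4.22 in wild type. Its change was -0.96 (SE 0.23) in the knockdown and -0.49 (SE 0.23) in the knockout, with a limma adjusted p of 0.397 in the knockdown. Cdhr5, a protocadherin that links microvilli, had -0.41 (SE 0.18). Krt20, a keratin of differentiated enterocytes, had -0.08. In the knockout, 11 of 17 means were lower, with a median of -0.06 (-0.18 without wild type 1, 0.02 without wild type 2). Mep1b, with -0.18 (SE 0.10), was the gene below wild type without overlap there, where 2.29% of all genes were. None of the 17 passed over all genes in either comparison.

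Among 19 genes of nutrient and lipid absorption, the apolipoproteins and the lipid transfer protein lay low in the knockdown and a sugar transporter lay high. The list as a whole had 10 lower means and a median of -0.03, which was 0.01 with array weights and -0.65 over the genes above the median level. Without overlap, 5 genes lay below wild type and 2 above, where 3.46% and 4.8% of all genes did. Apoa4, an apolipoprotein of chylomicrons, had 7.49, 7.35 and 7.56 in the knockdown, 8.08, 8.0 and 8.21 in the knockout, and 8.07, 8.48 and 8.35 in wild type. Its knockdown arrays lay below all others, with -0.84 (SE 0.13) and a limma adjusted p of 0.0683. Apoc3 had -0.94 (SE 0.18), Apob -0.81 (SE 0.16), Apoa1 -0.74 (SE 0.15) and Mttp, which loads lipid onto Apob, -0.65 (SE 0.22), all without overlap and with limma adjusted p-values between 0.219 and 0.695. Slc5a1, the sodium-glucose cotransporter, had 6.44, 5.88 and 6.24 in the knockdown, 5.46, 5.69 and 5.47 in the knockout, and 4.98, 5.74 and 5.61 in wild type. Its knockdown arrays lay above all others, with 0.74 (SE 0.21, limma adjusted p of 0.536). Rbp2, the intestinal retinol carrier, had 0.46 (SE 0.12), also above wild type. In the knockout Apob had -0.60 (SE 0.16) and Abcg8, a sterol exporter, 0.30 (SE 0.12), and the median was 0.04. Apob below and Abcg8 above wild type were the 2 genes without overlap there, where 2.29% and 2.54% of all genes were. None of the 19 passed in either comparison.

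Of 16 measured gut transcription factors, 11 averaged below wild type in the knockdown (median -0.06, and 0.01 without wild type 1). Hnf4g had -0.54 (SE 0.22, limma adjusted p of 0.851), with overlapping arrays. Hnf4a had -0.11 (SE 0.15), Cdx1 -0.16 (SE 0.12) and Gata4 -0.13 (SE 0.10). Klf5, a factor of proliferating gut epithelium, had 0.22 (SE 0.13) and was the gene above wild type without overlap, where 4.8% of all genes were. In the knockout the median was 0.02 (-0.0038 with centring, -0.0065 after repeated quantile normalization and -0.07 without knockout 7), every factor overlapped with wild type, and none of the 16 passed in either comparison.

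Genes of secretory gut cells were taken by cell type. Of 12 enteroendocrine genes, 9 averaged below wild type in the knockdown (median -0.23, and -0.13 without wild type 2). Chga, Pyy and Tph1 were below wild type without overlap, where 3.46% of all genes were. Chga, chromogranin A of secretory granules, had 5.98, 5.85 and 6.24 in the knockdown, 6.90, 6.96 and 7.26 in the knockout, and 6.88, 7.24 and 7.07 in wild type. The knockdown stood alone, with -1.04 (SE 0.15) and a limma adjusted p of 0.055. Pyy, peptide YY, had -0.56 (SE 0.14). In the knockout 9 of the 12 means were lower, with a median of -0.16 that was -0.0015 without wild type 2, and Gcg, which encodes glucagon-like peptides, had -0.52 (SE 0.16). Goblet cell genes had medians of 0.02 in the knockdown and 0.01 in the knockout over 11 genes (-0.28 in the knockdown over genes above the median level and -0.04 without wild type 1, and in the knockout -0.10 without knockout 9 and -0.03 after repeated quantile normalization), with Ccl6 at -0.53 (SE 0.11) and Clca1 (Clca3 in the older naming) at 0.47 (SE 0.19) in the knockdown, and Tff3, a trefoil peptide of mucus, at -0.28 in the knockdown and 0.30 in the knockout. Of 10 Paneth cell and antimicrobial genes, 6 had higher and 4 lower means in the knockdown (median 0.07, with -0.06 when wild type 1 and 0.18 when wild type 2 was left out). Reg4 had -0.60 in the knockdown and -0.85 in the knockout (SE 0.20 each), below wild type in both, and Ang4 had -0.81 (SE 0.21) in the knockdown. The knockout median was -0.27 with 8 of 10 lower. Without overlap, 3 of the 10 lay below wild type in the knockdown and 1 above, where 3.46% and 4.8% of all genes did. In the knockout 2 lay below and 0 above, where 2.29% and 2.54% of all genes did. The 8 microfold cell genes had medians of 0.04 in the knockdown and 0.09 in the knockout, which became -0.20 and -0.06 when wild type 1 was left out, and 0.12 and 0.29 when wild type 2 was. None of these genes passed in either comparison.

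**Figure D4:**
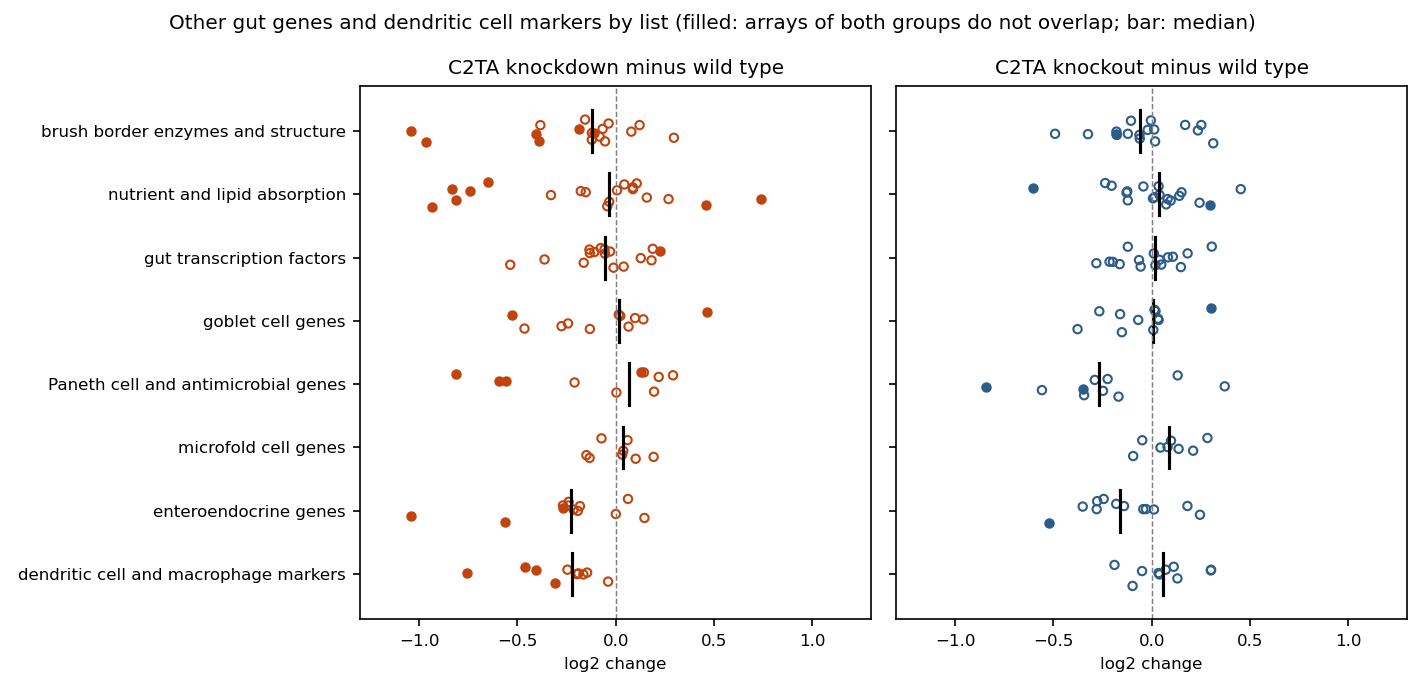
Log2 change of every measured gene of the gut lists and of the dendritic cell and macrophage markers, in the knockdown (left) and the knockout (right) against wild type; filled points are genes whose arrays do not overlap with wild type, and bars are medians. Filled points on the left reach -1.04 among brush border genes and enteroendocrine genes, and the lowest list median is -0.27, for Paneth cell genes in the knockout.

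Relatives of the 10 genes by family had values in both directions. Of 48 mucin, fatty acid carrier, Reg, galectin, zinc importer, villin, guanylin and Lypd relatives, 27 had higher and 21 lower means in the knockdown (median 0.05), 9 above and 5 below wild type without overlap, where 4.8% and 3.46% of all genes were. The median became -0.01 when wild type 1 was left out and 0.12 when wild type 2 was. Lypd3, a relative of Lypd8 in squamous epithelium, had 7.64, 7.56 and 7.68 in the knockdown, 6.55, 6.64 and 6.98 in the knockout, and 6.24, 6.84 and 7.0 in wild type. Its knockdown arrays lay above all others, whereas those of Lypd8 lay below, and its change was 0.94 (SE 0.19, limma adjusted p of 0.261). Lgals7, a galectin of stratified epithelium, had 1.17 (SE 0.17, limma adjusted p of 0.055), and Lgals2 had -0.49 (SE 0.12). Reg3b and Reg3a, close relatives of Reg3g, had 0.14 (SE 0.19) and 0.00 (SE 0.24). Members of the Reg family are similar in sequence, so their probe sets may share signal. The deposited annotation does not mark the probe set of Reg3g as cross-hybridising, and shared signal was not tested. In the knockout the 48 genes had a median of 0.00 (-0.01 with centring) and none passed in either comparison.

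Markers of other cells that a sort could carry along were described by their levels, and none of those in the 4 lists that follow passed in either comparison. All 10 dendritic cell and macrophage markers had lower means in the knockdown than in wild type, with a median of -0.22, and 4 did not overlap (Itgax, Csf1r, Ccr7 and Cd68), where 3.46% of all genes lay below. Their summed linear intensity was 508 to 595 in the knockdown, 613 to 760 in the knockout and 618 to 706 in wild type. Ccr7, which guides dendritic cells to lymphatic tissue, had 5.73, 5.98 and 6.10 in the knockdown, 6.16, 6.96 and 6.39 in the knockout, and 6.35, 6.92 and 6.81 in wild type, with a change of -0.76 (SE 0.22). Relative to the mean of the 9 arrays, these markers averaged -0.32 on knockdown 4, -0.19 on knockdown 5 and -0.15 on knockdown 6. Lypd8, Muc3, Slc39a4 and Fabp1 were low in the knockdown too, each lowest on knockdown 6. Of the 10 thymocyte markers, 7 had lower means in the knockdown (median -0.04, and -0.14 to 0.07 with 1 array left out) and 10 had higher means in the knockout (median 0.52), with summed intensities of 316 to 420 in the knockdown, 359 to 798 in the knockout and 348 to 411 in wild type. The knockout median was 0.31 without knockout 8 and 0.77 without knockout 7. Relative to the mean of the 9 arrays, these markers averaged 0.84 on knockout 8 and 0.54 on knockout 9 but -0.22 on knockout 7. They were highest on knockout 8 and next on knockout 9, and Lypd8 and Slc39a4 were highest on knockout 9 and next on knockout 8. Stromal and endothelial markers had a knockdown median of -0.18 over 6 genes (-0.08 without wild type 1, and 0.04 over those above the median level) and cortical epithelium markers -0.13 over 6 (-0.23 over those above the median level). The part of any of these markers in the values of the gut genes was not tested.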

How the data were processed

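RNA of sorted medullary epithelial cells was measured on 9 arrays, grouped by the sample titles. The members and gene lists were chosen with earlier results of these data known. The authors deposited log2 values computed by RMA (per the submitters' processing notes), which corrects background, normalizes between arrays and summarises probes by median polish. Its version, as well as genome build and annotation release, is not given in the sources used here. Another deposited copy of the log2 values was identical. Intensity values on a linear scale were also deposited, made with RMA per the file headers, and were not used. Summed levels of lists were computed by turning the log2 values back to a linear scale. The authors' deposited q-value, a score in percent that does not name its groups, was used for description.

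Of 35552 probe sets, 21536 have 1 symbol, 0 several and 14016 none. Symbols were updated through the RefSeq gene table of GRCm38.p6, and 1336 probe sets kept the file's symbol. The probe set with the highest mean was kept for each of 19593 genes, without any filter on low values.

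The model of limma 3.58.1 (R 4.3.3; lmFit and eBayes) took all 9 arrays and left 6 residual degrees of freedom, with two-sided p-values adjusted by Benjamini-Hochberg over all genes and a threshold of 0.05. It was tested on simulated data with known changes in the knockdown and noise independent between genes. There it called 26.9% of log2 changes of 0.5, 65.7% of those of 1 and 98.5% of those of 2. Groups do not overlap where every array of the first lies on the same side of every array of the second. Lists were described by counts and medians, beside those over all genes. The number of arrays limits the precision, and scanner background was not used here. Genes named besides the 10 are list genes past the threshold, otherwise the 3 with the smallest p per comparison or the largest SD, Ciita, and the nearest profiles. The other list genes given, such as Epcam, Fezf2, Hnf4a, Apoa1, Rbp2, Tph1, Reg3a and Reg3b, were chosen after their values were seen. Promoters came from a RefSeq table of GRCm38.p6 (C57BL/6J), which holds 9 of the 10 genes. As alternatives, values were quantile-normalized again or centred, dim genes were left out, eBayes used an intensity trend (also with robust = TRUE), and the fit took array weights estimated gene by gene, a fit of only the groups compared, all probe sets, the interquartile range as a covariate, or fewer arrays.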

Additional observations from a re-analysis of the deposited data

How the results depend on the processing

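No paired analysis was possible because the replicate numbers of the 3 groups are not shared. Under the 19 alternatives, Lypd8, Muc3 and Slc39a4 kept a negative knockdown change, from -0.95 to -0.72, -0.77 to -0.62 and -0.44 to -0.31, as did Fabp1 under the 18 that hold it (-1.63 to -0.90). Called members in the knockdown were 4 with array weights (Lypd8, Muc3, Vil1 and Fabp1, limma adjusted p between 0.00207 and 0.0163) and 2 with the interquartile range as a covariate (Lypd8 with 0.0311 and Muc3 with 0.0214), against 0 in the other alternatives. The cause was not tested. Array weights gave wild type 1 a weight of 0.125, wild type 2 one of 0.936 and wild type 3 one of 3.90. Wild type 3, the highest array for Fabp1 and Vil1, thus counted most in its group. Knockout 7 had a weight of 0.313.

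Over all genes, 13 were called in the knockdown. The count was 48 after quantile normalization, 23 with centring, 24 above the median gene, 411 with array weights (163 higher, 248 lower), 2 with only the groups compared, 144 with the covariate, 51 without wild type 1 and knockout 7, and 5 (without knockdown 6) to 48 (without wild type 1) without 1 array. For the knockout, 9 became 71 with array weights, 4 with only the groups compared and 30 with the covariate.

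Small changes turned their sign. Guca2a in the knockout had -0.0122 with centring, -0.2042 with array weights, -0.0522 with the covariate, -0.1976 without wild type 1 and knockout 7, and -0.251 to 0.1455 without 1 array. In the knockdown Guca2a had -0.1935, -0.0314, -0.2036 and -0.2036 to 0.1928, and Reg3g -0.205, -0.0803, -0.2677 and -0.2677 to 0.2224, with array weights, the covariate, without both arrays and without 1 array. Without both arrays, Muc13 had -0.0471 in the knockdown and Muc3 had -0.0239 in the knockout. Without 1 array, Muc13 ranged from -0.0471 to 0.3199 in the knockdown and from -0.0061 to 0.3608 in the knockout, Vil1 from -0.381 to 0.1892 and Reg3g from -0.4066 to 0.0835 in the knockout. The cause was not tested. How far signal over background limits genes with low values, such as Fabp1 and Fabp2, was not tested.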
